A study of Caenorhabditis elegans with 4 samples.

Results

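The genes described here are those of Caenorhabditis elegans whose current symbols begin with skr, cul, rbx, uba, ubc, ube or ubl and a number. Genes were taken by name, but the families and the lists below were chosen with earlier results of these data known. Of 14943 genes named by the array's probes, 27 matched: 16 skr, 5 cul, 2 rbx, 3 uba and 1 ubl gene. The RefSeq gene table holds 54 symbols of this form. The other 27 had no probe named for them here and were not analysed: 21 ubc genes, 5 skr genes (skr-4, skr-7, skr-10, skr-14 and skr-18) and cul-3. The set therefore covers E1 enzymes and the core of cullin ligases, with no E2 enzyme of the ubc family.

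RNA of 4 preps of glp-4 animals at L4, the last larval stage, was hybridised on 4 two-channel arrays, each against mixed-stage RNA of the wild type as the reference. The labels call both sides total RNA and name no allele, temperature or staging method, and they do not say whether the preps were grown apart, so a p-value here covers only how much the preps vary. The deposited value is a log2 ratio, read as glp-4 L4 over reference from the order of the channels in the labels. That direction is likely but not stated, and every higher or lower below rests on it. Mutants of glp-4, which encodes a valyl-tRNA synthetase, are known for making few germ cells when grown warm. Its 1 probe is annotated to agef-1 as well, so glp-4 itself had no value. Since the reference includes all stages and fertile adults, genotype and stage cannot be told apart in any ratio.

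Ubiquitin is attached to proteins by a relay of an E1 activating enzyme, an E2 conjugating enzyme and an E3 ligase. Cullin ligases, a large E3 class, are built on a cullin scaffold that holds a RING protein (RBX) at one end, which recruits the E2, and an adaptor with a substrate receptor at the other. In SCF ligases the adaptor is Skp1, which links the cullin to an F-box protein, and attachment of the ubiquitin-like NEDD8 switches cullins on. Most animals use few Skp1 genes, whereas C. elegans has a large family of Skp1-related genes, skr. In the worm germline and early embryo, cullin ligases are known for roles in meiosis, in replication licensing and in clearing maternal proteins.

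Marker genes moved strongly on the same arrays. All 12 germline markers were lower, with list medians of -2.73, -2.68, -2.82 and -2.74 on preps 1 to 4. All 12 oocyte markers were lower too, with a median of -4.11 over genes, as were 10 of 12 sperm markers, with a median of -2.89. Of 9 measured epidermal markers 7 were higher (median 1.901), and of 9 intestinal ones 7 were higher and 1 lower (median 1.09). The adult cuticle collagen col-19, which did not pass, read 2.15, 1.26, -0.602 and -1.89 on preps 1 to 4, so the preps lay on both sides of the reference for an adult gene. The marker lists moved beside every result below, and their part in those results was not tested. In whole animals, fewer cells of a type and less RNA per cell cannot be told apart.

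Skp1-related genes were mostly lower in glp-4 L4 animals, while single members of the cullin, E1 and skr families were higher. Of the 27 genes, 14 were lower, 3 were higher and 10 did not pass (limma, adjusted p under 0.05). Over all 19989 items tested, 24.4% were lower and 20.6% higher, 45% in all. Past a 2-fold change (limma treat), 6 of the 27 were lower and 0 higher, against 4.21% lower and 4.38% higher over all items, 8.59% in all. At an unadjusted treat p under 0.05 there were 1 higher (cul-6) and 7 lower, beside 6.51% higher and 5.95% lower over all items. At an unadjusted limma p under 0.05, without the 2-fold bound, there were 4 higher and 14 lower, where all items gave 23.5% higher and 28.8% lower. The median of the 27 was -0.42, beside -0.058 over all items.

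**Figure D1:**
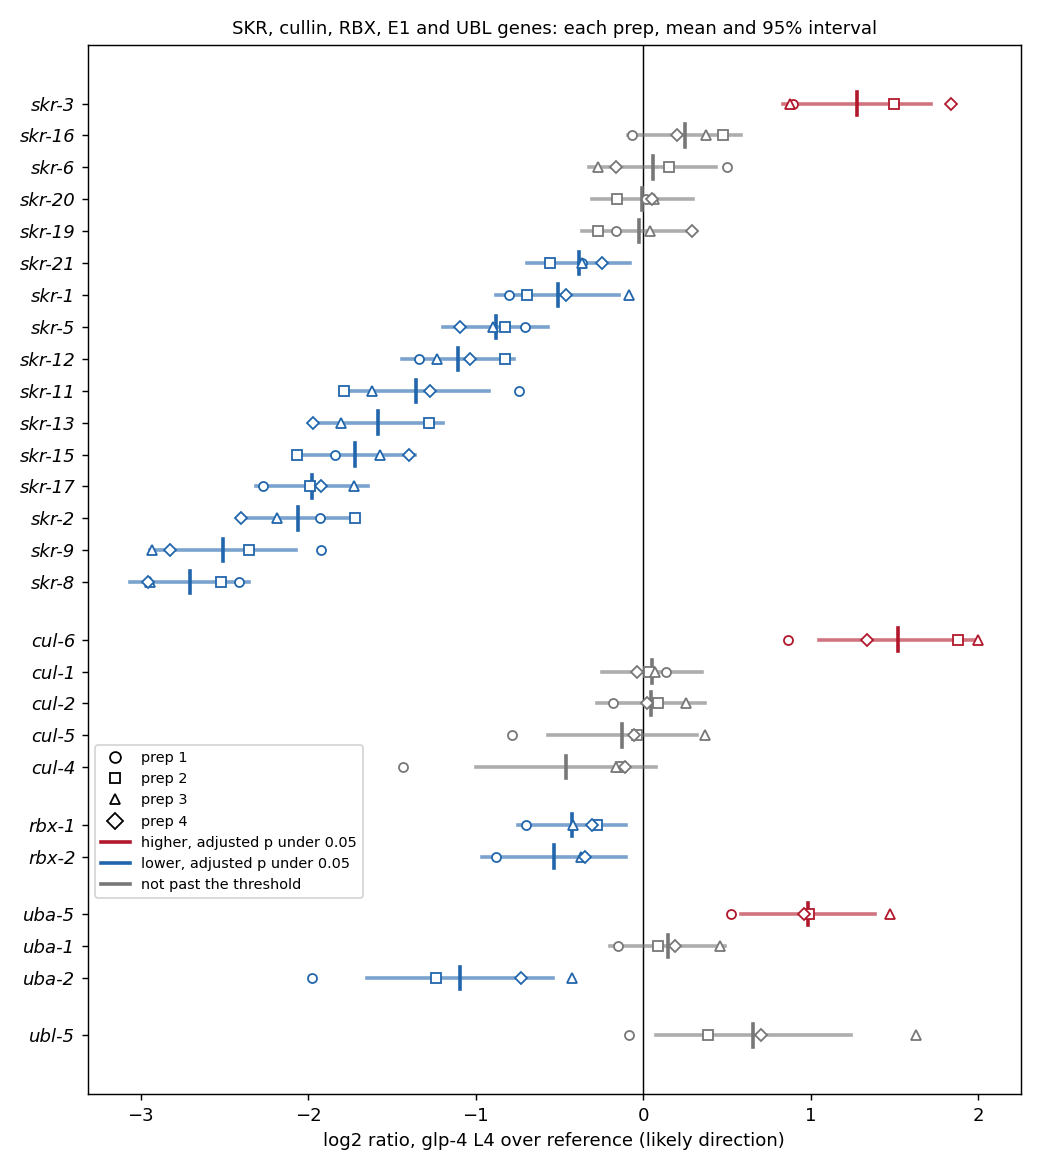
Log2 ratio (horizontal axis, glp-4 L4 over reference in the likely direction) of each of the 27 genes, 1 row per gene by family. Open symbols are the 4 preps, vertical bars the means and horizontal lines limma's 95% intervals; the skr family spans -2.71 (skr-8) to 1.28 (skr-3), and cul-6 stands alone among the cullins at 1.52.

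The skr family carried most of the lower calls. Of its 16 measured genes, 11 were lower, 1 was higher and 4 did not pass, and the family median was -0.99. By prep, that median was -0.77, -0.83, -1.07 and -1.06. All 6 genes past 2-fold were skr genes.

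The lowest were skr-8 and skr-9, which sit side by side on chromosome IV. The skr-8 ratio was -2.41, -2.52, -2.94 and -2.95 on preps 1 to 4, a mean of -2.71 ± 0.28 (SD, n = 4; limma adjusted p = 6.4e-06), or 6.53-fold lower. For skr-9 the values were -1.92, -2.35, -2.93 and -2.83, a mean of -2.51 ± 0.47 (adjusted p = 2.5e-05). In both genes every prep lay well below 0, and only 1.24% and 1.55% of all items had lower means. Interference with skr-7, skr-8, skr-9 and skr-10 is known to arrest worms as larvae. These copies are alike in sequence, so a probe for one may bind transcripts of the others, skr-7 and skr-10 included. Likeness between the other skr genes was not examined, so probes of those genes were not shown to be specific either.

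Next to them on chromosome IV lie skr-13 and skr-12, with no other gene between in the WBcel235 gene table, and both were lower as well. The skr-13 values were -1.28, -1.28, -1.81 and -1.97, with a mean of -1.58 ± 0.36 (adjusted p = 0.00014). Those of skr-12 were -1.34, -0.82, -1.23 and -1.04, with a mean of -1.11 ± 0.23 (adjusted p = 0.00044), and skr-12 was not past 2-fold (treat adjusted p = 1). The outer pair of this run was thus less low than the inner pair on each prep. The call of skr-13 past 2-fold, at treat adjusted p = 0.048, was lost without prep 2, 3 or 4, with the array medians centred, with the title code shared by preps 3 and 4 as a random block, with those preps averaged, with the first-listed probe fitted alone and at an adjusted p under 0.01.

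Measured genes beside the run were less low or were higher, by mean. On one side the 5 nearest genes ran from -0.79 (itsn-1) to -0.032 (uaf-2), and 4 of them were lower too (adjusted p from 0.0037 to 0.012), all but uaf-2. On the other side C52D10.3 had a mean of 1.46 ± 0.595 and the collagen gene col-138 one of 5.06 ± 0.60 (adjusted p = 0.00091 and 2.2e-06). By mean, the 4 skr genes lay below every measured neighbour within 5 genes on either side. On prep 2 itsn-1, at -1.03, was below skr-12, at -0.82.

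**Figure D2:**
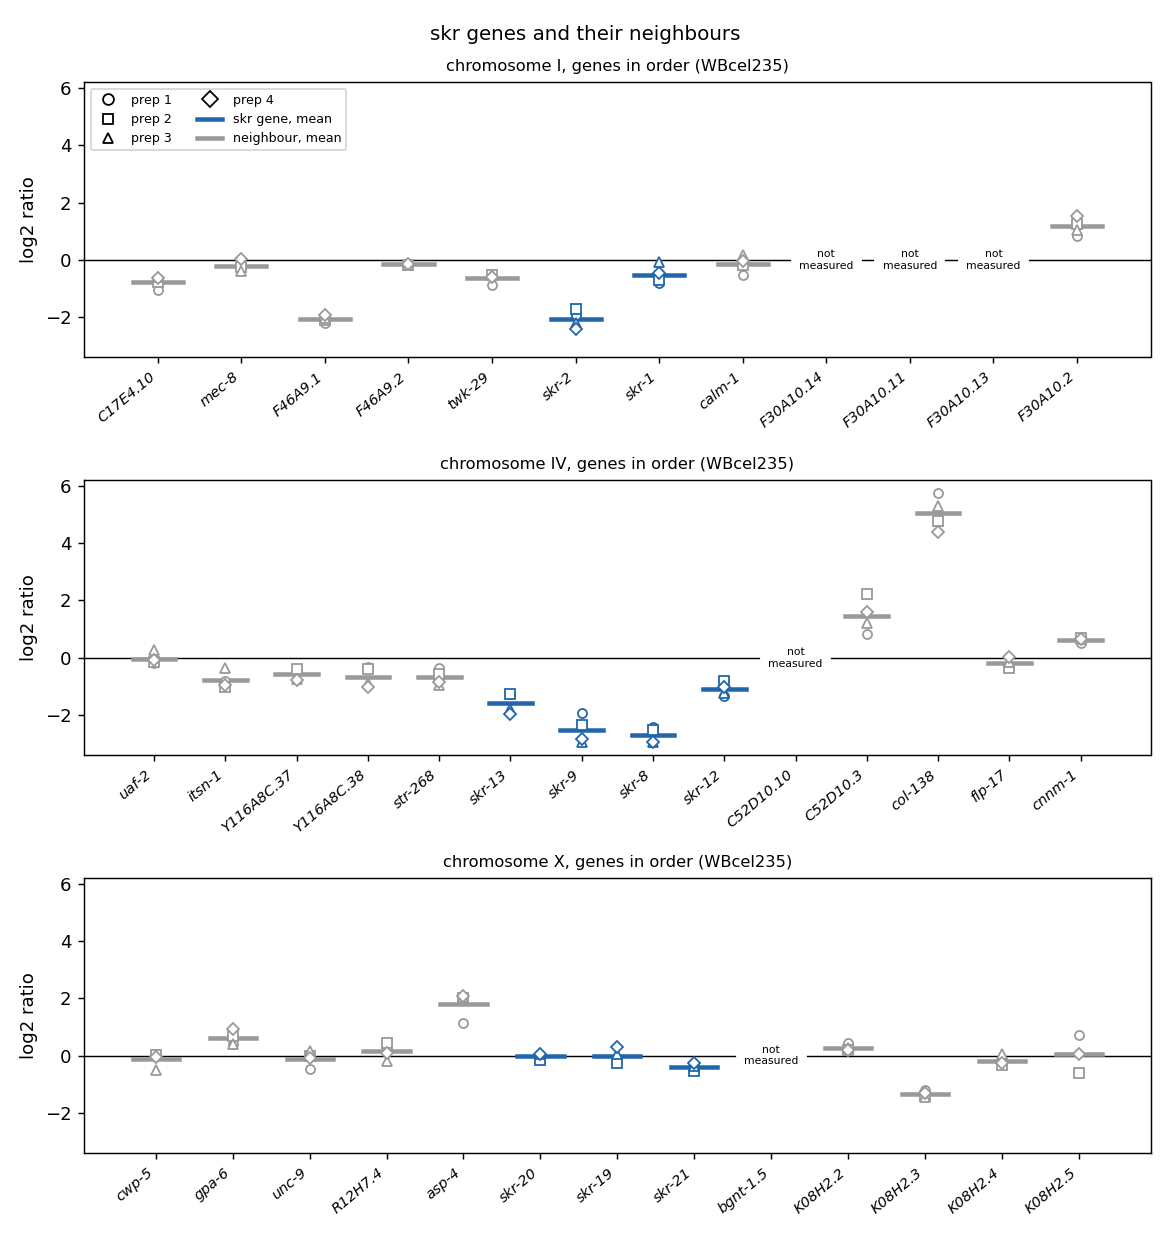
Log2 ratio of skr genes (blue) and of up to 5 genes on either side (grey) in gene order on chromosomes I, IV and X. Open symbols are the 4 preps and bars the means; the run of 4 on IV spans -2.71 to -1.11, skr-2 lies at -2.06 beside skr-1 at -0.51 on I, and the 3 genes on X span -0.38 to -0.0045.

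The neighbours skr-1 and skr-2 on chromosome I, the worm's closest counterparts of Skp1 and known partners of CUL-1, differed in size. The ratio of skr-2 was -1.93, -1.72, -2.18 and -2.40, a mean of -2.06 ± 0.30 (adjusted p = 2.5e-05) and 4.17-fold lower. That of skr-1 was -0.803, -0.69, -0.085 and -0.46, a mean of -0.51 ± 0.32 (adjusted p = 0.031). The values of the 2 genes did not overlap: skr-2 was below skr-1 on 4 of 4 preps, and skr-2 minus skr-1 ran from -2.10 to -1.03 on the log2 scale. This pair was chosen after its values were seen and the difference was not tested. The call of skr-1 was lost with array medians centred (adjusted p = 0.062) and without prep 1, 2 or 4 (0.072, 0.13 and 0.090). Other genes at this locus were lower as well. On the far side of skr-2, its neighbour twk-29 had a mean of -0.63 ± 0.17 (adjusted p = 0.0061) and C17E4.10 one of -0.76 ± 0.21 (adjusted p = 0.0028). The gene F46A9.1, which lies between them, was as low as skr-2, at -2.06 ± 0.11 (adjusted p = 1.1e-05). On the side of skr-1, F30A10.2 was higher at 1.17 ± 0.30 (adjusted p = 0.00049). The other measured neighbours, mec-8, F46A9.2 and calm-1, did not pass.

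Both skr genes on chromosome II, skr-17 and skr-15, were also past 2-fold. The values of skr-17 were -2.27, -1.99, -1.73 and -1.92, with a mean of -1.98 ± 0.23 (adjusted p = 2.1e-05). For skr-15 they were -1.84, -2.06, -1.57 and -1.40, with a mean of -1.72 ± 0.29 (adjusted p = 6.0e-05). The 4 preps of each gene lay within 0.67 of each other. The SDs of 0.23 for skr-17 and 0.29 for skr-15 compare with a median SD of 0.30 over all items tested. Without prep 2, and at an adjusted p under 0.01, skr-15 was no longer called past 2-fold.

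On chromosome V the skr genes went in different directions. The probe of skr-11, which the RefSeq table lists as a pseudogene, gave -0.74, -1.79, -1.62 and -1.27, a mean of -1.35 ± 0.46 (adjusted p = 0.00061). The 2 probes of skr-5 were averaged to -0.71, -0.83, -0.898 and -1.09, a mean of -0.88 ± 0.16 (adjusted p = 0.0011), and on their own had means of -0.87 and -0.89. In contrast skr-3 gave 0.895, 1.4967, 0.88 and 1.84, a mean of 1.28 ± 0.47 (adjusted p = 0.00089), which is 2.43-fold higher. It was the only higher skr gene of the 16 measured, and 93.0% of all items had lower means. Past 2-fold it did not pass (treat adjusted p = 0.67).

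SKR-3 and SKR-5 are both known as adaptors of a CUL-6 ligase that acts in the response to intracellular pathogens and in heat tolerance. Here skr-3 lay above skr-5 on 4 of 4 preps, by 1.601 to 2.93 on the log2 scale. The pair was named after the values were seen and that difference was not tested. The last skr gene on V, skr-6, did not pass, and its averaged probes gave 0.502, 0.16, -0.27 and -0.16 (mean 0.057 ± 0.35).

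Of the 3 skr genes on the X chromosome 1 was lower and 2 did not pass. They lie next to each other in the order skr-20, skr-19 and skr-21. The first gave 0.017, -0.16, 0.068 and 0.052 (mean -0.0045 ± 0.103, 95% interval -0.31 to 0.298). The averaged probes of skr-19 gave -0.16, -0.27, 0.04 and 0.29 (mean -0.025 ± 0.25), so its preps fell on both sides of 0, and its 2 probes had means of -0.0998 and 0.0504. The mean of skr-21, from values of -0.37, -0.56, -0.36 and -0.25, was -0.38 ± 0.13 (adjusted p = 0.046). That call was lost without any 1 prep (adjusted p = 0.062 to 0.21) and with array medians centred (0.088). Of the 13 skr genes on autosomes 10 were lower and 1 higher, against 1 of 3 lower on X, a comparison with too few X genes for a statement about the chromosome. On IV, apart from the run of 4, skr-16 had values of -0.065, 0.48, 0.37 and 0.204 (mean 0.25 ± 0.24) and did not pass.

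Most cullin scaffold genes did not pass. Of 5 measured cullins 1 was higher and 4 did not pass, a called share of 20% beside 45% over all items. The higher one was cul-6, the scaffold that also serves the pathogen response ligase. It gave 0.86, 1.88, 2.00 and 1.34, a mean of 1.52 ± 0.52 (adjusted p = 0.00049), or 2.87-fold higher. Its treat adjusted p was 0.16, and without prep 1 it was called past 2-fold (mean 1.74).

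The closest relative of cul-6 is cul-1, the SCF scaffold known for restraining cell division, and its ratio stayed near 0. It gave 0.13, 0.036, 0.073 and -0.035, a mean of 0.052 ± 0.071 with a 95% interval from -0.25 to 0.35. For cul-2, whose ligases act in meiosis and in the oocyte-to-embryo transition, the values were -0.18, 0.0895, 0.25 and 0.024 (mean 0.047 ± 0.18, 95% interval -0.27 to 0.37). Neither interval reaches further than 0.37 from 0, so a change of the size seen in cul-6 lies outside both. The ratio of cul-6 exceeded that of cul-1 on 4 of 4 preps, by 0.73 to 1.93, and that of cul-2 by 1.04 to 1.79. These pairs too were chosen after their values were seen, and their differences were not tested.

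The other 2 cullins varied more between preps. For cul-5 the values were -0.78, -0.0365, 0.37 and -0.056 (mean -0.13 ± 0.48). For cul-4, which limits replication licensing by removing CDT-1, they were -1.43, -0.13, -0.16 and -0.11 (mean -0.46 ± 0.65, adjusted p = 0.15). All 4 preps of cul-4 were negative, and prep 1 alone was far from 0. Without prep 1 its mean was -0.13.

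Both RING partners of the cullins were slightly lower. The gene rbx-1, whose product serves most cullins, gave -0.701, -0.28, -0.42 and -0.304, a mean of -0.42 ± 0.19 (adjusted p = 0.038). The gene rbx-2, known as the partner of CUL-5, had no value on prep 2 and gave -0.88, -0.37 and -0.35 on the others, a mean of -0.53 ± 0.302 (SD, n = 3; limma adjusted p = 0.049). Neither call held when the array medians were centred (adjusted p = 0.075 and 0.091) or when any 1 prep was left out (up to 0.093 and 0.16). Leaving out prep 2 removes no value of rbx-2, and its adjusted p was then 0.074.

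Of the 3 E1 genes 1 was higher, 1 was lower and 1 did not pass. The ubiquitin E1 gene uba-1, which starts the ubiquitin relay, gave -0.15, 0.0909, 0.46 and 0.19 as the average of its 2 probes, a mean of 0.15 ± 0.25 (adjusted p = 0.45, 95% interval -0.196 to 0.49). Its probes alone had means of 0.062 and 0.23. The gene uba-2, which encodes a subunit of the SUMO E1, gave -1.98, -1.23, -0.42 and -0.73, a mean of -1.09 ± 0.68 (adjusted p = 0.0066) or 2.13-fold lower. The gene uba-5, the E1 of the ubiquitin-like UFM1, gave 0.52, 0.9899, 1.47 and 0.96, a mean of 0.99 ± 0.39 (adjusted p = 0.0021) or 1.98-fold higher.

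On 4 of 4 preps the order was uba-5 above uba-1 above uba-2. The gap between uba-5 and uba-1 ran from 0.68 to 1.01, and that between uba-1 and uba-2 from 0.88 to 1.82. Both calls were lost without moderation of the variances (adjusted p = 0.11 for uba-2 and 0.053 for uba-5). The partner of UBA-2 in the SUMO E1 is AOS-1, and aos-1 had a mean of -0.25 ± 0.49 that did not pass (adjusted p = 0.32). On 4 of 4 preps uba-2 lay below aos-1, and uba-2 minus aos-1 ran from -1.19 to -0.58. These pairs were chosen after their values were seen, and their differences were not tested.

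The ubiquitin-like protein gene ubl-5, known from the mitochondrial unfolded protein response, gave -0.086, 0.39, 1.63 and 0.701. Its mean was 0.66 ± 0.72 and did not pass (adjusted p = 0.065). Without prep 1, the only negative value, it was called higher at a mean of 0.91 (adjusted p = 0.0104). Without prep 3, the highest value, the mean was 0.33 (adjusted p = 0.23).

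**Figure D3:**
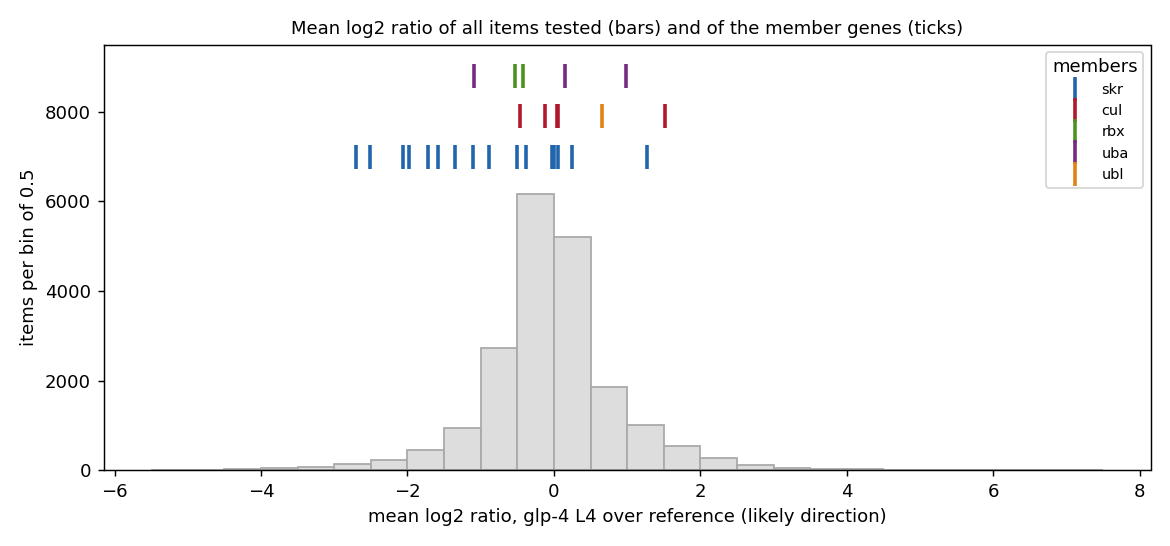
Number of items per bin of 0.5 in mean log2 ratio (bars, 19989 items) with ticks for the 27 genes, coloured by family and set at arbitrary heights above the bars. The ticks of the skr family reach down to -2.71, and the cullin ticks other than cul-6 lie between -0.46 and 0.052.

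Genes that work with these families were taken from 10 lists of receptors, modifiers and other ubiquitin enzymes. Of 106 genes listed, 87 were measured: 38 were lower, 6 were higher and 43 did not pass, with a median of -0.38 (all items: 24.4% lower, 20.6% higher, median -0.058). The higher count was 3 without prep 3 or prep 4 and 9 without prep 1. The lower count was 23 without prep 2 and 24 without prep 4.

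Among 6 F-box substrate receptors, which dock onto Skp1, 4 were lower and 1 higher. The meiotic gene prom-1 gave -1.72, -1.64, -1.89 and -2.49 (mean -1.94 ± 0.39, adjusted p = 5.6e-05), and fsn-1, known from synapses, -1.68, -1.69, -1.02 and -1.62 (mean -1.5007 ± 0.32). The higher one was dre-1, which acts in epidermal timing and moulting and was named after its value was seen, at a mean of 1.04 ± 0.42. Of 9 measured genes listed for CUL-2 ligases, which include fem-2 and fem-3 besides adaptors and receptors, 5 were lower and 1 higher. Those that did not pass were elb-1, fem-1 and zer-1, with means of 0.26, -0.065 and -0.31. The receptor lrr-1, which acts in replication and the germline, gave -2.52, -1.77, -1.79 and -2.09 (mean -2.04 ± 0.35). The sex determination gene fem-3 gave -1.98, -2.22, -1.77 and -1.96 (mean -1.98 ± 0.19). The one higher gene, vhl-1, which targets the hypoxia factor and was named after its value was seen, had a mean of 0.98 ± 0.30. The scaffold gene cul-2 itself, as above, had a mean of 0.047.

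Of 6 CUL-3 receptors 3 were lower and 2 higher. The receptor mel-26, which removes meiotic katanin in the embryo, had a mean of -0.98 ± 0.25, and kel-8, a Kelch protein, one of 0.84 ± 0.36. Of 4 CUL-4 adaptors and receptors 3 were lower, including cdt-2, the receptor for CDT-1, at -1.34 ± 0.32 and dcaf-1 at -0.704 ± 0.24. All 4 preps of cdt-2 were at -0.92 or lower, while 3 of the 4 values of cul-4 were -0.16 to -0.11. On prep 1 both genes were low, cdt-2 at -1.47 and cul-4 at -1.43. This contrast was drawn after the values were seen and was not tested.

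The measured regulators of cullins mostly did not pass. Of 7 measured genes of neddylation, cullin exchange and the COP9 signalosome, 1 was lower and 6 did not pass, with a median of -0.25. The called share was 14.3% beside 45% over all items, and 7 genes are few for such a comparison. Of the 11 genes listed, csn-1, csn-3, csn-4 and csn-6 were not measured. The lower one was cand-1, which exchanges substrate receptors, at -0.603 ± 0.28 (adjusted p = 0.013). Its call was lost without prep 4 (adjusted p = 0.054), without moderation of the variances (0.068) and at an adjusted p under 0.01. The NEDD8 gene ned-8 and its E1 genes ula-1 and rfl-1 had means of 0.19, 0.13 and 0.035.

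The SUMO list went mostly one way. Of its 7 genes 6 were lower and 0 higher, with a median of -0.67. Of the 6, smo-1 and ulp-4 had means of -0.45 ± 0.197 and -0.48 ± 0.17. Both were named after their values were seen, and each was called in 1 of the 4 fits with a prep left out. The looser unadjusted limma p under 0.05, which cannot give fewer calls, also gave 6 lower and 0 higher. Over all items it gave 28.8% lower and 23.5% higher. The SUMO protease ulp-5 gave -1.90, -1.75, -2.42 and -2.29 (mean -2.09 ± 0.32), and ulp-1 had a mean of -0.99 ± 0.44. The gene outside the call was aos-1, above. Beside them the SUMO E1 gene uba-2 had a mean of -1.09.

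Of 6 ubiquitin, E2 and E2-like genes 4 did not pass and 2 were lower, the ubiquitin genes ubq-1 at -0.54 ± 0.201 and ubq-2 at -0.69 ± 0.604. The second had values on both sides of 0, with 0.15 on prep 1, and was called in 1 of the 4 fits with a prep left out. The call of ubq-1 was lost without prep 2 or prep 4 (adjusted p = 0.073 and 0.087) and at an adjusted p under 0.01. The only E2 measured here, let-70, had a mean of -0.36 ± 0.29 and did not pass (adjusted p = 0.090). The E2 variants uev-1, uev-2 and uev-3 had means between -0.08 and 0.081.

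Of 23 other ubiquitin ligases of the HECT and RING classes 8 were lower and 15 did not pass. The lowest, lin-41, was measured on 3 preps and named after its value was seen, at -2.06 ± 0.19. Among those on 4 preps mig-32, a RING protein of a Polycomb-type complex, had a mean of -1.28 ± 0.22 and rnf-113 one of -1.25 ± 0.62. The first-listed probe of rnf-113 alone had a mean of -0.72. The call of its averaged probes was lost without moderation of the variances (adjusted p = 0.077). Of 12 deubiquitinases 5 were lower and 1 higher, with otub-3 at -1.41 ± 0.54 and otub-4 at -0.91 ± 0.31. Of 7 genes of CDC-48 and its cofactors, the machine that extracts ubiquitinated proteins, ubxn-3 was lower at -0.75 ± 0.27 and cdc-48.2 higher at 0.41 ± 0.098. The call of cdc-48.2 was lost without prep 2, 3 or 4 (adjusted p = 0.13, 0.088 and 0.12), with the shared title code as a random block (0.0605), with preps 3 and 4 averaged (0.083) and at an adjusted p under 0.01.

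**Figure D4:**
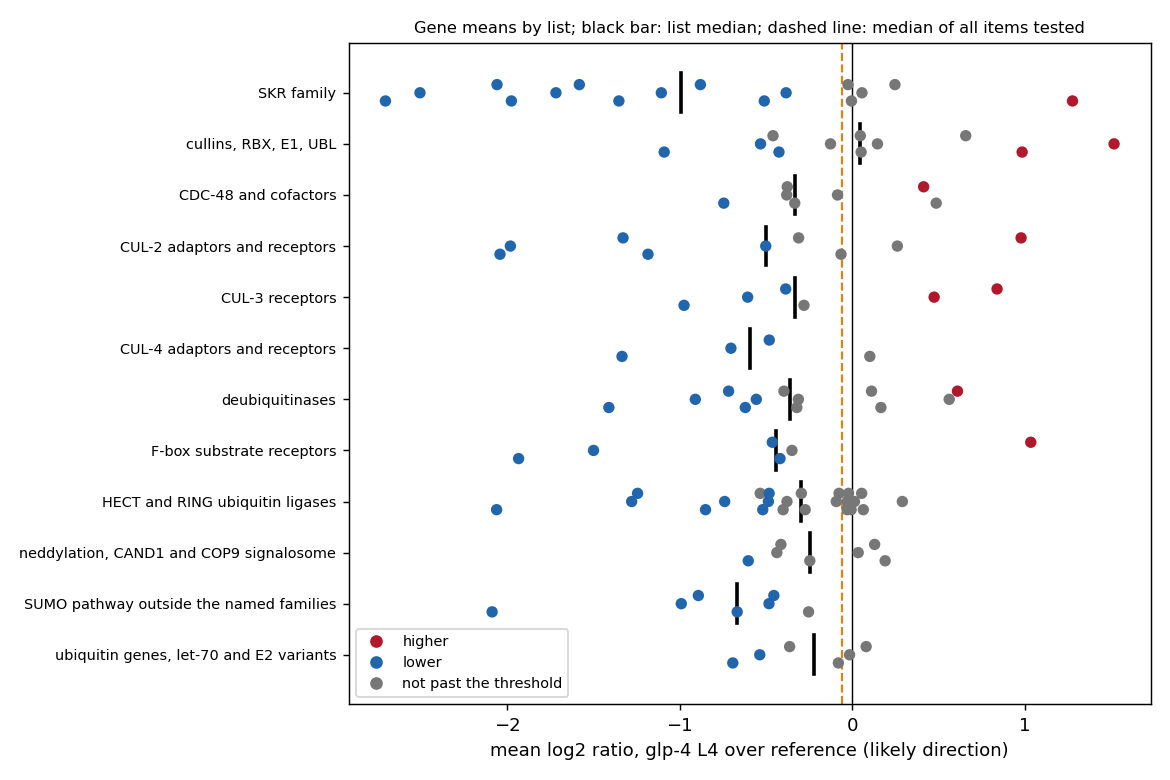
Mean log2 ratio of each measured gene by list, with the skr family and the other member genes in the top 2 rows. Black bars are list medians and the dashed line is the median of all items tested, -0.058; the skr median lies at -0.99, the SUMO list median at -0.67.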

How the data were processed

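The authors deposited 1 table of log2 ratios for 21632 probes on 4 two-channel arrays. Base 2 was inferred, since taking 2 to the power of a deposited value gave whole thousandths (tolerance 0.01 thousandth) for 100% of ratios under 20. How background, dye bias, centring and poor spots were handled is not given in the sources used here. Without intensities dim spots cannot be told from bright ones, and precision is limited by having 4 arrays. Probe names from the platform's annotation, some of them old, were updated through a RefSeq gene table (WBcel235) by gene ID for 16360 probes, accession for 5 and symbol or locus tag for 85. In all 16450 probes had 1 symbol, 247 several and 4935 none here. Probes of a gene were averaged per array. Items with values on at least 3 arrays (19989) entered a two-sided limma test of the mean against 0 (limma 3.58.1, R 4.3.3; lmFit, eBayes, Benjamini-Hochberg over all items), and limma's treat for a 2-fold change. No test includes the spread of the reference. The steps were tested on simulated data. Members, lists and alternatives were chosen with earlier results of these data known. Members were described with their prep values. From each list the 2 genes with the largest absolute mean among those past the threshold with 1 sign on 4 arrays were named, and others were named after their values were seen. Pearson's r between arrays, across items, was 0.74 to 0.897.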

Additional observations from a re-analysis of the deposited data

Results flagged for a closer look

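In 5 of 67 sets of 4 prep values, 1 prep stood far from the other 3 by Dixon's ratio, and chance gives about 1 in 20. The cul-4 ratio was -1.43 on prep 1, where the other preps read -0.16 to -0.11. The median of the 27 genes was -0.71 on prep 1, against -0.27 to -0.25. Prep 1 also stood apart for otub-3, at -2.22 against -1.24 to -1.06, and for cdc-48.2, at 0.27 against 0.45 to 0.48. For fsn-1 it was prep 3, at -1.02 against -1.69 to -1.62.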

How the results depend on the processing

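The 14 alternatives were followed gene by gene for the members and for the list genes named by largest absolute mean. None of those with a call changed direction. Markers, neighbouring genes and genes named after their values were seen were not checked in this way. Of the 17 called members, 11 kept their call under all of them, uba-2 and uba-5 lost it without moderation alone, and skr-1, skr-21, rbx-1 and rbx-2 lost it under 7 to 11. The lower count of 14 was 10 to 13 where it moved, and the higher count of 3 was 2 without moderation and 3 to 4 with a prep left out. Past 2-fold the count of higher members, 0, was 0 to 1 with a prep left out, and that of lower members, 6, was 4 to 7 (4 without prep 2), 4 at an adjusted p under 0.01 and 5 or 6 otherwise. The 2-fold test was not run without moderation. In the pathway lists the 6 higher genes became 3 with the title code shared by preps 3 and 4 as a random block (correlation 0.37), with those preps averaged, without moderation or at an adjusted p under 0.01, and 3 to 9 with a prep left out. The 38 lower genes became 21 without moderation, 23 at an adjusted p under 0.01 and 23 to 36 with a prep left out. In these lists kel-8, rnf-113, ulp-1 and otub-3 lost their call without moderation alone (adjusted p = 0.062, 0.077, 0.064 and 0.051). The calls of cand-1, ubq-1 and cdc-48.2 were lost under 3, 3 and 6 alternatives. Centring moves an array by at most 0.12. No paired analysis was possible because all 4 samples form 1 group. Intensities were not used, so how far background limits the ratios, those near 0 included, was not measured.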

Other observations

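The preps ranked the families differently. Of the 10 members outside the skr family with 4 values, 9 had their lowest value on prep 1 and 7 their highest on prep 3. Over all items with 4 values, 35.5% were lowest on prep 1 and 31.3% highest on prep 3. In the 16 skr genes the lowest value fell on prep 1 for 4, prep 2 for 5, prep 3 for 3 and prep 4 for 4. The split by family was made after the values were seen and was not tested.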
